A study of Mus musculus with 13 samples.

Results

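The 52 immune cell genes followed here are markers of leukocytes that can be present in a dissected gland. They were chosen by symbol, with earlier results of these data known. They comprise the pan-leukocyte gene Ptprc (CD45), 10 T cell genes, 5 B cell genes, 3 genes of natural killer (NK) and cytotoxic cells, 12 genes of macrophages and monocytes, the myeloid adaptors Tyrobp and Fcer1g, 3 mast cell genes, 3 neutrophil genes, the dendritic progenitor receptor Flt3, 5 genes of the class II and 3 of the class I pathway of the major histocompatibility complex (MHC), the lymphoid chemokine genes Cxcl13 and Ccl19 with the receptor gene Ccr7, and Sdc1, which marks plasma cells and is also made by epithelium. Of these, 51 had a row among the 23364 genes of the series and Ly6g was not analysed here. Ccl19 was listed at 0 FPKM in all 13 samples, and every one of the 556 windows of 50 bases of its transcript that was found on chromosome 4 of mm9 occurred there more than once, and reads with more than 1 location had been left out. The genes Zap70, Pax5 and Fcer1a stayed under 1 FPKM in every sample, with highest values of 0.946, 0.497 and 0.281 FPKM. The other 47 were among the 14650 genes tested.

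RNA was sequenced from whole submandibular glands of mice, all labelled C57BL/6, at 6 time points, namely the embryonic days E14.5 (3 samples), E16.5 and E18.5, postnatal day 5 (P5), 4 weeks (4wk) and 12 weeks (12wk), the last 5 with 2 samples per time point. No genetic change or treatment was applied. Glands of 3 animals were pooled for an E14.5 sample, and of 2 animals for a sample of the later embryonic days. Sex was not determined in the embryonic and P5 animals according to the methods, and the 4wk and 12wk animals were male, so that age and sex cannot be told apart in the comparisons with the adult. Stages were also compared, with the embryonic time points as 1 group (7 samples) set against P5 (2 samples) and the adult (4wk and 12wk, 4 samples). Epithelial identity of the tissue was checked with Epcam, which ranged from 101.5 to 307 FPKM in the 13 samples, and with Aqp5, a water channel of acinar cells, which was lowest at E14.5 (0.569, 9.13 and 5.98 FPKM) and between 94.3 and 262 FPKM from E16.5 on.

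Leukocytes reach a gland in waves. Macrophages seed tissues early in the embryo, before birth, and persist there, whereas T and B lymphocytes leave thymus and bone marrow around and after birth and recirculate through lymph nodes. Mast cells colonise connective tissue and store proteases in granules. Class I molecules present peptides on nearly all nucleated cells, and class II molecules do so mainly on macrophages, dendritic cells and B cells, under the control of the transactivator Ciita. In bulk RNA, fewer cells of a type and less RNA per cell cannot be told apart.

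Values are read numbers scaled to gene length and to the total of the library (FPKM), and changes are differences of mean log2(FPKM + 1) with their standard error (SE), which understate the change of genes of low level. A gene was called when it changed by at least 1 on this scale with a limma adjusted p below 0.1. Reads on genes numbered between 17345305 and 48314162 in embryonic and P5 samples, 5817293 and 7957918 at 4wk, with 21820923 and 28431454 at 12wk, so that a single read on a gene of 1 kilobase was worth between 0.0207 and 0.172 FPKM. The 10 highest genes took at least 5.93% of FPKM in the embryo, 29.2% and 31.1% on P5, and between 48.1% and 61.1% in the adult. With the values as deposited, the median change of all tested genes was -0.75 in adult versus embryo, -0.25 in P5 versus embryo, -0.53 in adult versus P5 and in 4wk versus P5, -0.14 in E18.5 versus E16.5 and -0.12 in P5 versus E18.5. After rescaling each sample by the median of ratios, none of the 8 medians exceeded 0.05 in size, and counts of called genes are given on both scales where they differ.

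Several libraries stood apart before any comparison. In 4 libraries, E14.5 replicates 2 and 3 and both of 12wk, genes of the MHC region had another composition than in the other 9. The non-classical gene H2-T10 was at 7.20, 7.41, 12.8 and 9.21 FPKM in these and at most 1.06 elsewhere, while H2-T23 was at 3.71, 4.46, 11.0 and 8.84 FPKM against 38.6 to 66.1 in the others, with E14.5 replicate 1 at 11.4. H2-Ea-ps was at 3.51 and 3.68 FPKM at 12wk and at 0 in both 4wk libraries. The mast cell tryptase gene Tpsab1, outside the MHC, was at 7.45 and 7.48 FPKM in E14.5 replicates 2 and 3 and at most 0.383 in all others. These 4 genes are not members and were chosen after their values were seen. All samples carry the same strain label, and what sets these libraries apart was not tested. Among the members, the ratio of H2-Eb1 to H2-Ab1 was 0.109, 0.0703, 0.0264 and 0.026 in the 4 libraries and between 0.671 and 2.12 in the other 9. Changes of MHC calls without these libraries are therefore given beside the results. In those fits the adult group is 4wk alone, and E14.5 is replicate 1 alone. E14.5 replicate 1 differed from replicates 2 and 3 by at least 1 on the log2 scale in 8 of 47 members each, beside 4.46% and 3.69% of all genes, against 0 members and 0.41% of genes between replicates 2 and 3. The embryonic globin Hbb-y was at 2991 FPKM in it against 334 and 670, and the summed muscle genes at 521.7 against 205.7 and 164.5. The muscle sum was higher still in the E16.5 samples, at 539.9 and 1175, so that it sets the library apart within E14.5 only. At 4wk, replicate 1 exceeded replicate 2 by at least 1 in 7 of 47 members, a share beside 6.92% of all genes apart by as much. The part of these differences in any result was not tested.

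**Figure D1:**
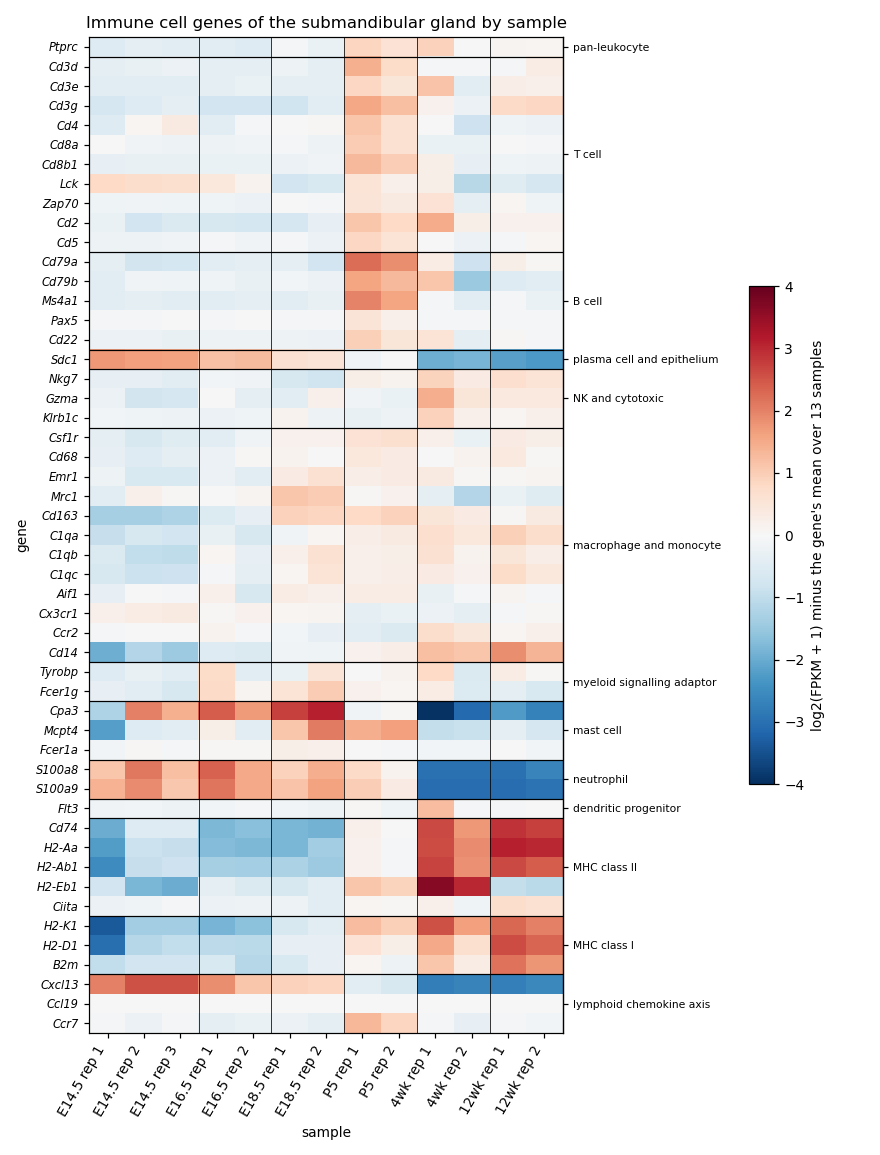
Heat map of the 51 genes with a row in 13 samples, in columns ordered by time point and replicate. Colour is log2(FPKM + 1) minus the mean of that gene over the samples, and horizontal lines separate the roles named at the right. Cd74, H2-Aa, H2-Ab1, H2-K1, H2-D1 and B2m were high in the 4wk and 12wk columns, H2-Eb1 at 4wk, most T and B cell genes at P5, and S100a8, S100a9, Cpa3 and Cxcl13 in embryonic columns.

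In adult versus embryo, 11 of 47 members were called higher and 5 lower with the values as deposited, where 5.58% and 38.0% of the 14650 tested genes were called. The median of the members was 0.38 beside -0.75 for all tested genes. After rescaling, 22 of 48 members were called higher and 5 lower, beside 13.8% and 14.7% of 14601 tested genes, with medians of 0.84 and -0.05. The share of all called genes that were higher thus changed with the scale, from 818 against 5567 lower to 2020 against 2147 lower. Members called higher on both scales were the class II genes Cd74, H2-Aa, H2-Ab1 and H2-Eb1, the class I genes H2-K1, H2-D1 and B2m, and Cd14, C1qa, Cd2 and Gzma. Members called lower on both scales were Cpa3, S100a8, S100a9, Cxcl13 and Sdc1.

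Of the 11 members called higher in adult versus embryo, 7 were MHC genes. Cd74, the invariant chain that chaperones class II molecules, was at 5.79, 17.8 and 18.0 FPKM at E14.5, 6.76 and 7.44 on E16.5, 6.64 and 6.32 on E18.5, 30.2 and 26.7 on P5, 169 and 90.0 at 4wk, with 198 and 178 at 12wk. Both P5 samples lay above all embryonic and below all adult samples. Cd74 rose by 3.96 ± 0.32 (SE) in adult versus embryo (n = 4 and 7, adjusted p = 1.3e-07), by 1.97 ± 0.42 in P5 versus E18.5 (adjusted p = 0.0097), and by 2.08 ± 0.42 in 4wk versus P5 (adjusted p = 0.0017).

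H2-Aa, the alpha chain of the class II molecule I-A, was at 3.11, 9.78 and 9.34 FPKM at E14.5, between 4.48 and 6.37 on E16.5 and E18.5, 20.9 and 17.3 on P5, 117 and 71.5 at 4wk, with 168 and 156 at 12wk. It rose by 4.20 ± 0.28 in adult versus embryo (adjusted p = 2.8e-08), the largest increase of the 47 members. Its partner H2-Ab1, the beta chain, was at 1.09, 5.22 and 5.74 FPKM at E14.5, between 3.31 and 3.91 on E16.5 and E18.5, 12.5 and 10.2 on P5, 76.8 and 41.5 at 4wk, with 72.8 and 63.1 at 12wk. Its change in adult versus embryo was 3.79 ± 0.27 (adjusted p = 5.1e-08). For H2-Aa, H2-Ab1 and Cd74, the 3 stages did not overlap.

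H2-Eb1, the beta chain of the class II molecule I-E, followed the others only in part. It was at 2.30, 0.567 and 0.403 FPKM at E14.5, 3.37 and 2.73 on E16.5, 2.63 and 3.14 on E18.5, 11.0 and 9.49 on P5, and 68.4 and 44.7 at 4wk, but at 1.92 and 1.64 at 12wk, or 70 and 78 reads where the shallower 4wk libraries gave 664 and 593. It was called lower in 12wk versus 4wk, where it fell by 4.34 on the log2 scale (SE 0.35, adjusted p = 2.9e-05). Both 12wk libraries are among the 4 that stood apart, and no comparison of these ages without them can be made. In adult versus embryo the change was 2.10 ± 0.80 (adjusted p = 0.027) and 3.88 ± 0.21 (adjusted p = 1.4e-06) without the 4 libraries. Low H2-Eb1 was itself among the traits by which these libraries were described. The larger change and smaller SE without them therefore follow from that choice and are no support for a rise. With all ages kept, the call was lost without 4wk replicate 1 (1.28, adjusted p = 0.13) or without 4wk replicate 2 (1.48, adjusted p = 0.12). In E16.5 versus E14.5, H2-Eb1 was the only member called (1.06 ± 0.32, adjusted p = 0.039, 1 of 47 members beside 4.17% of all genes called higher and 0.983% lower), which was lost without E14.5 replicate 2 (0.91) or 3 (0.83) or E16.5 replicate 1 (0.95) and did not hold with rescaling (0.95, where 0 members and 3.65% and 0.747% of all genes were called) or without the 4 libraries (0.29, adjusted p = 0.61, with 1 library left at E14.5).

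Ciita, the master regulator of class II transcription, was low throughout. It was between 0.0162 and 0.342 FPKM in the embryo, 0.465 and 0.412 on P5, 0.574 and 0.221 at 4wk, with 1.26 and 1.11 at 12wk. Its change in adult versus embryo was 0.55 ± 0.16 (adjusted p = 0.0063), below the size required for a call.

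Class I genes were also called higher in the adult. H2-K1, a class I heavy chain, was at 4.54, 20.7 and 20.9 FPKM at E14.5, 14.6 and 17.1 on E16.5, 35.4 and 41.8 on E18.5, 132 and 110 on P5, 334 and 177 at 4wk, with 276 and 229 at 12wk. It was thus already above every earlier sample at E18.5. H2-D1, the second heavy chain, was at 2.81, 12.9 and 14.3 FPKM at E14.5, 13.8 and 13.5 on E16.5, 23.2 in both on E18.5, 44.9 and 35.0 on P5, 85.8 and 46.6 at 4wk, with 184 and 152 at 12wk. B2m, the light chain that all class I molecules share, was between 97.5 and 171 FPKM in the embryo, 227 and 186 on P5, 459 and 261 at 4wk, with 975 and 735 at 12wk. In adult versus embryo H2-K1 rose by 3.66 ± 0.42, H2-D1 by 2.90 ± 0.46 and B2m by 2.08 ± 0.28 (adjusted p = 3.4e-06, 6e-05 and 1.5e-05). B2m was the only member called higher in 12wk versus 4wk (1.29 ± 0.27, adjusted p = 0.011), where 1 of 47 members was higher and 1 lower beside 2.68% and 2.48% of all genes. The call was lost without 4wk replicate 2 (0.88) or 12wk replicate 1 (1.08, adjusted p = 0.1), and with rescaling, beside 3.69% and 3.26%, H2-D1 was called as well (1.41 ± 0.51, adjusted p = 0.081). The ratio of H2-D1 to H2-K1 was 0.257 and 0.263 at 4wk and 0.665 and 0.664 at 12wk, and between 0.556 and 0.946 in the embryo.

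Without the 4 libraries that stood apart, 7 MHC members were still called higher in adult versus embryo. The adult was then the 2 shallow 4wk libraries alone, so these values say nothing of 12wk. The change was 4.04 for Cd74, 4.05 for H2-Aa, 3.87 for H2-Ab1, 3.69 for H2-K1, 2.23 for H2-D1 and 1.43 for B2m, and Ciita did not reach the minimum level for testing. H2-D1 was no longer called in P5 versus embryo (1.55, adjusted p = 0.065, became 1.57, adjusted p = 0.12), a call also lost without either P5 sample, while H2-K1 was then called in E18.5 versus E16.5 (1.23, adjusted p = 0.048 against 0.18 with all libraries) and in 4wk versus P5 (1.01, adjusted p = 0.017 against 0.13). Cd74 was also set against a macrophage gene of the same library, a ratio that rescaling cannot affect. The ratio of Cd74 to Csf1r was between 0.447 and 2.32 in the embryo, 1.57 and 1.32 on P5, and between 8.70 and 12.3 in the adult.

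**Figure D2:**
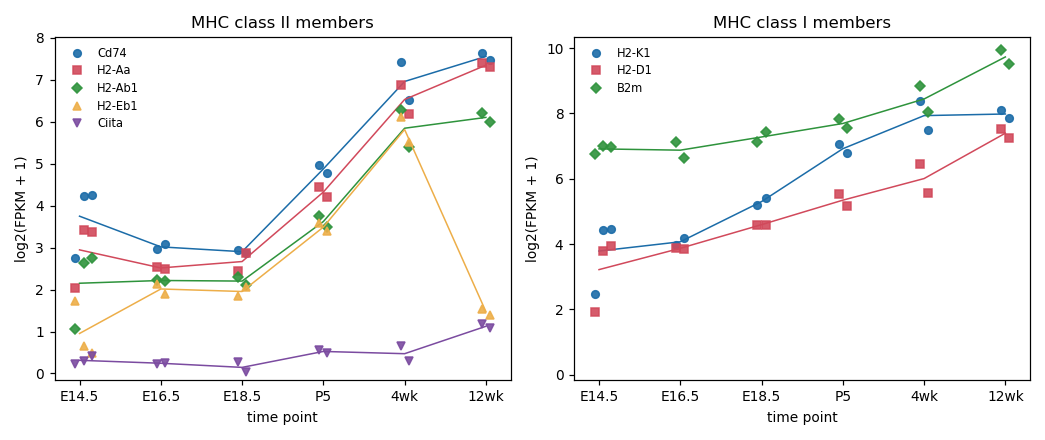
Levels of class II (left) and class I (right) members as log2(FPKM + 1) at 6 time points, with a point for each sample, offset by replicate, and lines through the time point means. H2-Eb1 (triangles) was higher at P5 and 4wk, as were Cd74, H2-Aa and H2-Ab1, and was at 1.92 and 1.64 FPKM at 12wk.

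The H2 members lie together on chromosome 17 of mm9, with H2-K1 at 34132962 to 34137278, H2-Ab1 at 34400154 to 34406363, H2-Aa at 34406276 to 34424772, H2-Eb1 at 34442828 to 34453144 and H2-D1 at 35399675 to 35404444, whereas B2m lies on chromosome 2 at 121973422 to 121978819. Reads from near-identical H2 genes were left out by the counting, and 7.29% of the windows of 50 bases of H2-K1 transcripts and 12.8% of those of H2-D1 also occurred in transcripts of other genes. The 180 bases before the start of 3 class I and 2 class II members called higher in adult versus embryo, H2-Eb1 with its different course among them, are shown because both classes are known to be controlled from this stretch. The set of RefSeq (GRCm38.p6) sequences used here covered 38 members. Cd74, H2-Ab1 and Ciita were not in it, which does not mean that RefSeq lists no start for them. Capitals mark 4 motifs searched on both strands: GATTGG (the core of the Y box, an inverted CCAAT box), AGCAAC (core of the X box), the palindromic NF-kB site of class I enhancer A (the run of 11 capitals) and TTTCACTT (core of the interferon response element). H2-Aa is from chr17:34287824-34288003 (minus strand), H2-Eb1 from chr17:34305687-34305866 (plus), H2-K1 from chr17:34000348-34000527 (minus), H2-D1 from chr17:35262914-35263093 (plus) and B2m from chr2:122147507-122147686 (plus).
H2-Aa: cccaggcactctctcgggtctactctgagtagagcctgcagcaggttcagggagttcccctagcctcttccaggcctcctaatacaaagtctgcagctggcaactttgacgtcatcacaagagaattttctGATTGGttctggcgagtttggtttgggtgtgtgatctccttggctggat
H2-Eb1: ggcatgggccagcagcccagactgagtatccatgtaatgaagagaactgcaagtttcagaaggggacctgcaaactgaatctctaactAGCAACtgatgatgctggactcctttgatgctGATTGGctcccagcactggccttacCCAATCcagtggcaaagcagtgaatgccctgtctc
H2-K1: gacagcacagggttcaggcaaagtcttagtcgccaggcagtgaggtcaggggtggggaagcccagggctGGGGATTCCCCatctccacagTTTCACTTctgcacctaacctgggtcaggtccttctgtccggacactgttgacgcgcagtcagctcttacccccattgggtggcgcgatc
H2-D1: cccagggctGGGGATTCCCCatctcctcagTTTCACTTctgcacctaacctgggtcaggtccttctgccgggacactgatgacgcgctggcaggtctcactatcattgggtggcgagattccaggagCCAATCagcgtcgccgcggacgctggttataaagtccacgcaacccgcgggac
B2m: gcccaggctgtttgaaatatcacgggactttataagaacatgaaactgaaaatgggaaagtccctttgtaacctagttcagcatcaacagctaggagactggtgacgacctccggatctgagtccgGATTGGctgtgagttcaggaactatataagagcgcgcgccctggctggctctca

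GATTGG or its reverse complement CCAATC began 49 bases before the start in H2-Aa, 60 and 35 in H2-Eb1, 53 in H2-D1 and 54 in B2m, and H2-K1 held it elsewhere in its window. It was present in 16.1% of all 32851 promoter windows of 300 bases and in 11 of the 38 members with a window. AGCAAC occurred in 14.8% of windows and, of those printed, in H2-Eb1. The enhancer A site was in 10 windows (0.0304%), among them H2-K1 and H2-D1, and TTTCACTT in 1.60%, again with both. No motifs overlapped one another, and a match of letters is a description and no sign of binding.

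Of 20 tested genes of the further antigen presentation list, 8 were called higher and 1 lower in adult versus embryo (11 and 0 with rescaling), with a median of 0.71 beside the -0.75 of all genes. The shares of all genes called were 5.58% higher and 38.0% lower (13.8% and 14.7% with rescaling). The proteasome subunit Psmb8, which trims peptides for class I, rose by 1.99 ± 0.30, the peptide transporter Tap2 by 1.99 ± 0.24, and Nlrc5, a transactivator of class I genes, by 1.62 ± 0.16 (adjusted p = 4.1e-05, 5.1e-06 and 6.4e-07). Nlrc5 was between 0.0754 and 0.235 FPKM in the embryo, 1.13 and 0.799 on P5, and between 1.43 and 3.70 in the adult.

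T and B cell genes had another course, with the highest values mostly at P5. In P5 versus E18.5, 15 of 47 members were called higher and 2 lower, beside 2.07% and 2.97% of all genes, and 6 of 9 tested T cell genes and 3 of 4 tested B cell genes were among those higher. In 4wk versus P5, 6 members were called higher and 15 lower, beside 2.19% and 22.1% of all genes, and 5 T cell and 3 B cell genes were lower. With rescaling these numbers were 13 higher and 2 lower of 48 in P5 versus E18.5, beside 2.38% and 1.79% of all genes, and 11 higher and 13 lower in 4wk versus P5, where 6.40% and 8.75% of all genes were called. Of 10 tested T cell genes, 5 were then higher in P5 versus E18.5 and 4 lower in 4wk versus P5. Of 4 tested B cell genes, 2 were higher in the former and 2 lower in the latter. In P5 versus embryo, 17 members were called higher and 3 lower, beside 4.14% and 8.14% of all genes, and with rescaling 19 and 2, beside 5.57% and 3.91%. Single libraries weighed on these calls. Without P5 replicate 1, the calls of Ptprc, Cd3e, Cd79b, Cd14, Cd163, Cd74, H2-Aa, H2-Ab1 and H2-D1 in P5 versus embryo were lost. In P5 versus E18.5, the calls of Cd3e, Cd79b, Lck, H2-Ab1 and H2-K1 were lost without any 1 of its 4 samples. That of Cpa3 was lost without E18.5 replicate 2 or either P5 sample, and those of Cd2 and H2-Aa without E18.5 replicate 1 or P5 replicate 1. In these fits the sample left alone is assumed to vary like the other groups. In 4wk versus P5, without 4wk replicate 2, Cd79b (-0.32), Cd4 (-0.85) and Cd8b1 (-0.90) were not called, nor were Cd3d (-0.82) and Cd79b (-1.46, adjusted p = 0.14) without P5 replicate 1, where Cd8a was not tested.

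Cd3g, a chain of the T cell receptor complex, was between 0.113 and 0.475 FPKM in the 7 embryonic samples, 4.53 and 3.38 on P5, 1.18 and 0.614 at 4wk, with 2.29 and 2.37 at 12wk. It rose by 1.97 ± 0.20 in P5 versus E18.5 (adjusted p = 0.0002) and fell by 1.39 in 4wk versus P5 (SE 0.20, adjusted p = 0.00022). The 12wk samples lay between those of 4wk and P5. Cd3d, its partner chain, was at most 0.173 FPKM in the embryo, 2.60 and 1.25 on P5, and between 0.259 and 0.661 in the adult, and it rose by 1.38 ± 0.22 in P5 versus E18.5 (adjusted p = 0.0023). Cd3e was at most 0.0933 FPKM in the embryo and 1.37 and 0.875 on P5 (a rise of 1.02 in P5 versus E18.5, adjusted p = 0.074, not called with rescaling), and was at 1.92 and 0 at 4wk, with 0.606 and 0.539 at 12wk. The 3 CD3 genes lie within chr9:44777655-44817673 of mm9.

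Cd8b1, the beta chain of the co-receptor of cytotoxic T cells, was at most 0.152 FPKM in the embryo, 2.09 and 1.49 on P5, 0.486 and 0 at 4wk, with 0.130 and 0.0994 at 12wk. Cd8a, the alpha chain, was at 1.43 and 0.849 FPKM at P5, had 216 and 112 reads there, and had no read in either 4wk library, which puts P5 at least 7.99-fold higher when 3 reads are set as the floor of each 4wk library. At 12wk it was at 0.190 and 0.157 FPKM, near the 0.165 and 0.12 FPKM that 3 reads were worth at 4wk. Cd4, the co-receptor of helper T cells that some macrophages also carry, was less confined to P5, with 0.285, 0.943 and 1.34 FPKM at E14.5, 0.365 to 0.886 on E16.5 and E18.5, 2.90 and 1.82 on P5, 0.833 and 0.0406 at 4wk, with 0.622 and 0.557 at 12wk. Its change in P5 versus E18.5 was 0.85 ± 0.32 (adjusted p = 0.087), and it fell by 1.26 in 4wk versus P5 (adjusted p = 0.0056).

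Lck, the kinase of T cell receptor signalling, differed from the other T cell genes in the embryo. It was at 4.198, 3.93 and 3.73 FPKM at E14.5, 3.04 and 2.29 on E16.5, 0.753 and 0.966 on E18.5, 3.42 and 2.46 on P5, 2.54 and 0.383 at 4wk, with 1.14 and 0.888 at 12wk. All E14.5 samples were thus above the P5 samples, at a time when Cd3e was at 0 FPKM in all 3. Lck rose by 1.07 ± 0.34 in P5 versus E18.5 (adjusted p = 0.049). The adhesion receptor Cd2 was at most 0.408 FPKM in the embryo, 2.61 and 1.91 on P5, 3.76 and 0.989 at 4wk, with 0.881 and 0.892 at 12wk. Its call in adult versus embryo (1.08 ± 0.23, adjusted p = 0.00078) was lost without 4wk replicate 1 (0.75). Cd5, which dampens T cell receptor signals, was at 1.1 and 0.734 FPKM at P5 and at most 0.255 in every other sample.

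Among B cell genes, Cd79a, a signalling chain of the B cell receptor, was between 0.0465 and 0.391 FPKM in the embryo, 7.30 and 5.43 on P5, 1.17 and 0 at 4wk, with 1.07 and 0.822 at 12wk. It rose by 2.62 ± 0.31 in P5 versus E18.5 (adjusted p = 0.00044), and fell by 2.31 in 4wk versus P5 (SE 0.31, adjusted p = 0.00013). Ms4a1, which encodes the B cell surface protein CD20, was at most 0.0749 FPKM in the embryo, 4.31 and 2.97 on P5 with 428 and 258 reads, 0.251 and 0 at 4wk, with 0.267 and 0.120 at 12wk. It rose by 2.15 ± 0.18 in P5 versus E18.5 (adjusted p = 5.2e-05). Cd79b, the second chain, had a level of 1.04 to 1.54 FPKM throughout the embryo, 7.34 and 5.74 on P5, 5.02 and 0 at 4wk, with 0.956 and 1.06 at 12wk. Its rise of 1.62 in P5 versus E18.5 (adjusted p = 0.074) was not called with rescaling. Cd22, an inhibitory receptor of B cells, was at 1.49 and 0.781 FPKM on P5, at most 0.120 in the embryo, 0.877 and 0 at 4wk, and 0.329 and 0.204 at 12wk, so that 4wk replicate 1 lay above P5 replicate 2. The B cell transcription factor gene Pax5 was at 0.497 and 0.216 FPKM at P5 and at most 0.0444 in the other samples.

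Ccr7, the receptor that guides lymphocytes and dendritic cells to lymph nodes, followed the lymphocyte genes. It was at most 0.303 FPKM in the embryo, 2.34 and 1.45 on P5, 0.261 and 0.0636 at 4wk, with 0.302 and 0.232 at 12wk, with a rise of 1.41 ± 0.18 in P5 versus E18.5 (adjusted p = 0.0007) and a fall in 4wk versus P5 (it fell by 1.30, adjusted p = 0.00016). A marker of lymph node vessels was also highest at P5. Glycam1, a mucin of high endothelial venules that is also made in other glands, was at 15.9 and 12.2 FPKM at P5, at most 0.0429 in the embryo, 1.65 and 0 at 4wk, with 0.293 and 0 at 12wk. Of 6 tested genes of that list of 12, 2 were called higher and 1 lower in P5 versus E18.5, and 3 lower and 0 higher in 4wk versus P5 (with rescaling, of 5 tested genes, 2 higher and 0 lower and then 3 lower and 0 higher). Of all genes, 2.07% were called higher and 2.97% lower in P5 versus E18.5 (2.38% and 1.79% with rescaling). In 4wk versus P5, 22.1% were called lower and 2.19% higher (8.75% and 6.40% with rescaling). The sum over the list was between 23.6 and 33.1 FPKM in the embryo, 46.6 and 40.1 on P5, 17.8 and 12.8 at 4wk, with 7.91 and 6.26 at 12wk. Glycam1 itself gave 15.9 and 12.2 FPKM of the P5 sums. Lyve1, also on the list, was at 23.4 and 24.7 FPKM on E18.5 and at 10.8 and 11.9 on P5. Apart from Lyve1 and Ccl21a, the genes of the list were higher in both P5 samples than in both E18.5 samples, several of them at under 1 FPKM. Madcam1 was at 3.83 and 2.66 FPKM on P5 and 1.26 and 0.630 on E18.5, and Enpp2 at 11.0 and 9.16 against 5.96 and 5.30. In E14.5 replicate 1, however, these 2 were at 3.36 and 13.6 FPKM. The sum thus mixes genes of different course. Ccl21a, a chemokine of lymph node stroma, was listed at 0 in all samples. Since reads with more than 1 location were left out, and the globin genes Hba-a1, Hba-a2 and Hbb-b2 were listed at 0 in all samples too, that 0 does not show absence. The part of lymph node tissue in the P5 values was not tested.

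**Figure D3:**
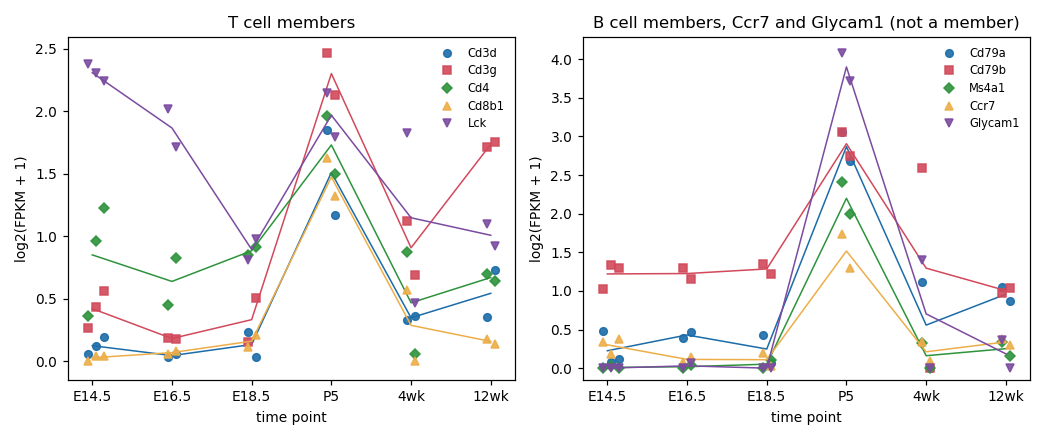
Levels of T cell members (left) and of B cell members, Ccr7 and the lymph node vessel gene Glycam1 (right) as log2(FPKM + 1), with a point for each sample and lines through the time point means. Most of these genes peaked in both P5 samples, Lck was higher at E14.5, and the 4wk replicates lay far apart for Cd79b (5.02 and 0 FPKM).

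The 4wk replicates disagreed on lymphocytes. Over the 14 T and B cell genes with read numbers, replicate 1 held 186 reads and replicate 2 held 25, although replicate 2 was the deeper library. Cd79b had 35 reads against 0, Cd3e 16 against 0, Cd22 22 against 0 and Cd79a 9 against 0, where 3 reads would have been 0.315, 0.263, 0.0874 and 0.284 FPKM in replicate 2. Flt3, a receptor of dendritic and lymphoid progenitors, was at 1.93 FPKM in replicate 1 and between 0.0759 and 0.289 in the other 12 samples. At 12wk both replicates were alike, with 0 of 47 members apart by at least 1 on the log2 scale.

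The wider lymphocyte lists were called in the same directions around P5. Of the further B cell genes, 5 of 14 tested were called higher and 0 lower in P5 versus E18.5 and 7 lower and 0 higher in 4wk versus P5, and of 7 tested further T cell genes 3 were higher in the former and 3 lower in the latter. With rescaling these numbers were 4 and 5 of 14 B cell genes, and 3 and 2 of 9 T cell genes. Of all genes, 2.07% were called higher in P5 versus E18.5 and 22.1% lower in 4wk versus P5 (2.38% and 8.75% with rescaling). Not all of these are particular to lymphocytes: Ebf1, a B cell factor also used by stromal cells, fell by 2.60 in adult versus embryo (SE 0.26, adjusted p = 1e-06), and the T cell factor genes Tcf7 and Bcl11b, which epithelium and mesenchyme can express, fell by 1.46 and 1.34, the former without a call after rescaling (-0.95).

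Genes of NK and cytotoxic cells had their highest values in the adult. Gzma, a granule protease, was between 0.0449 and 0.983 FPKM in the embryo, 0.566 and 0.432 on P5, 3.72 and 1.43 at 4wk, with 1.25 and 1.24 at 12wk. It was called higher in adult versus embryo at the limit of the call (1.00 ± 0.23, adjusted p = 0.0012), but with the replicate number as a block (0.95) or without any 1 of 5 samples it was not (0.74 without 4wk replicate 1, and between 0.94 and 0.99 without E14.5 replicate 2 or 3, E16.5 replicate 2 or E18.5 replicate 1), and in 4wk versus P5 it rose by 1.18 ± 0.31 (adjusted p = 0.008), though not without 4wk replicate 1 (0.70, adjusted p = 0.068). Nkg7, a granule membrane protein, was between 0.0379 and 0.679 FPKM in the embryo, 1.12 and 0.963 on P5, 2.33 and 1.24 at 4wk, with 1.86 and 1.60 at 12wk. Its change in adult versus embryo was just under the limit (1.00 ± 0.16, adjusted p = 6.6e-05) and it was called with rescaling (1.49 ± 0.14). Klrb1c, the receptor NK1.1, was between 0.168 and 0.504 FPKM in the embryo, 0.126 and 0.198 on P5, and between 0.435 and 1.57 in the adult. Of 6 tested further NK genes, 3 were called higher and 0 lower in adult versus embryo (5 and 0 of 8 with rescaling), among them the NK receptor gene Ncr1 (1.32 ± 0.15, adjusted p = 2.3e-06) and the interleukin receptor chain Il2rb (1.14 ± 0.13, adjusted p = 3.5e-06). Of all genes, 5.58% were called higher and 38.0% lower (13.8% and 14.7% with rescaling).

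Macrophage genes were present at every age. The complement components C1qa, C1qb and C1qc, whose genes lie side by side within chr4:136436044-136454718 of mm9, were between 13.3 and 49.4 FPKM in the embryo and between 31.8 and 51.8 in the adult. C1qa was at 13.3, 16.6 and 15.1 FPKM at E14.5, 21.2 and 16.7 on E16.5, 23.9 and 28.1 on E18.5, 32.0 and 34.3 on P5, 42.9 and 35.4 at 4wk, with 51.8 and 43.2 at 12wk, so that the stages did not overlap. It rose by 1.16 ± 0.18 in adult versus embryo (adjusted p = 5.8e-05). Without the 4 libraries that stood apart, with 4wk alone as the adult, it rose by 0.93, which is under the size required. The ratio of C1qb to C1qa was between 1.5 and 1.76 in E14.5 replicate 1 and all 4 samples of E16.5 and E18.5, and between 0.872 and 1.16 in the other 8.

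Csf1r, the receptor for the growth factor of macrophages, was at 9.52, 7.70 and 8.70 FPKM at E14.5, 9.01 and 11.2 on E16.5, 14.1 in both on E18.5, 19.3 and 20.2 on P5, 14.51 and 10.3 at 4wk, with 16.1 and 14.95 at 12wk, and 15.7% of the windows of 50 bases of its transcripts are shared with the overlapping gene Hmgxb3. Cd68, a lysosomal protein, was between 4.66 and 8.01 FPKM in the embryo and between 6.99 and 9.55 in the adult, and Emr1, which encodes the surface protein F4/80, between 2.83 and 7.91 and between 5.03 and 6.46. None of the 3 was called in adult versus embryo as deposited (0.38, 0.32 and 0.30), while all were called with rescaling (1.26, 1.16 and 1.09). The same held for C1qb and C1qc (0.66 and 0.71 as deposited, 1.58 and 1.63 rescaled), for Ccr2 (0.42 and 1.14) and for Ptprc (0.63 and 1.34). Of the 12 macrophage and monocyte genes, 2 were thus called higher as deposited, beside 5.58% of all genes, and 9 with rescaling, beside 13.8%. Whether macrophage genes rose into the adult thus depends on the scale.

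Ratios within a library do not. Cd163, a scavenger receptor for haemoglobin on resident macrophages, was at 0.0924, 0.0790 and 0.150 FPKM at E14.5, 0.860 and 1.19 on E16.5, 4.18 and 3.89 on E18.5, 3.77 and 4.17 on P5, 2.79 and 2.43 at 4wk, with 1.80 and 2.5 at 12wk. It rose by 1.32 ± 0.17 in E18.5 versus E16.5 (adjusted p = 0.0011), 1 of 3 members called higher and 0 lower in that comparison, beside 1.09% and 1.85% of all genes (1.32% and 1.16% with rescaling, with the same 3 members called), and in E16.5 versus E14.5 its change was 0.87 ± 0.15 (adjusted p = 0.0036). Relative to Csf1r, Cd163 went from 0.00971 to 0.0172 on E14.5 to 0.297 and 0.275 on E18.5, and was between 0.112 and 0.235 from P5 on. Mrc1, the mannose receptor CD206, was at 8.75, 14.7 and 12.9 FPKM at E14.5, 12.4 and 13.5 on E16.5, 28.2 and 26.5 on E18.5, 12.96 and 14.0 on P5, 9.54 and 5.01 at 4wk, with 10.3 and 8.57 at 12wk. It rose by 1.02 ± 0.26 in E18.5 versus E16.5 (adjusted p = 0.032), a call that was lost without either E18.5 sample or E16.5 replicate 1. Without E18.5 replicate 2 the mast cell gene Mcpt4 was not called either, leaving Cd163 alone. The ratio of Mrc1 to Csf1r was between 0.919 and 2.00 in the embryo, 0.673 and 0.692 on P5, and between 0.484 and 0.657 in the adult, with no overlap between embryo and later samples.

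Cx3cr1, the fractalkine receptor of monocytes and of some tissue macrophages, was between 4.92 and 6.34 FPKM in the embryo, 3.41 and 3.85 on P5, and between 3.45 and 5.01 in the adult, with a change of -0.34 in adult versus embryo as deposited and 0.45 with rescaling. Its ratio to Csf1r was 0.594, 0.797 and 0.729 on E14.5, 0.546 and 0.488 on E16.5, 0.362 and 0.371 on E18.5, 0.177 and 0.190 on P5, 0.268 and 0.333 at 4wk, with 0.278 and 0.335 at 12wk. The embryonic time points did not overlap in this ratio. Ccr2, the receptor by which monocytes leave the blood, was between 1.89 and 2.97 FPKM in the embryo, 1.66 and 1.41 on P5, 4.79 and 3.96 at 4wk, with 2.81 and 3.12 at 12wk, and rose by 1.08 ± 0.16 in 4wk versus P5 (adjusted p = 0.00026), or by 0.97, under the size required, without 4wk replicate 1.

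Cd14, the co-receptor for bacterial lipopolysaccharide, was higher at each later time point. It was at 0.589, 1.77 and 1.27 FPKM at E14.5, 3.28 and 3.12 on E16.5, 4.62 and 4.47 on E18.5, 5.99 and 6.45 on P5, 13.2 and 12.3 at 4wk, with 21.2 and 14.9 at 12wk, with no overlap between any 2 time points. The change in adult versus embryo was 2.23 ± 0.31 (adjusted p = 2.1e-05), although no single step reached the size required for a call as deposited (0.38 to 0.96). Aif1, a cytoskeletal protein of macrophages, was between 3.34 and 7.35 FPKM in all samples. Of the adaptors that couple myeloid receptors to kinases, Tyrobp was between 19.8 and 53.2 FPKM and Fcer1g between 12.2 and 40.4 in all samples, without a call as deposited. Both E16.5 replicates differed for Tyrobp (50.2 and 22.1 FPKM).

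Of 18 tested further macrophage genes, 4 were called higher and 4 lower in adult versus embryo, and 5 and 1 with rescaling. The shares of all genes were 5.58% higher and 38.0% lower, and 13.8% and 14.7% with rescaling. The protease gene Ctss rose by 1.49 ± 0.21 (adjusted p = 2.3e-05), while Lyve1, which is shared by macrophages and lymphatic vessels, fell by 2.26 (SE 0.33, adjusted p = 2.8e-05). Lyve1 was at 5.35 to 13.5 FPKM at E14.5, 23.4 and 24.7 on E18.5, and between 1.46 and 4.48 in the adult.

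**Figure D4:**
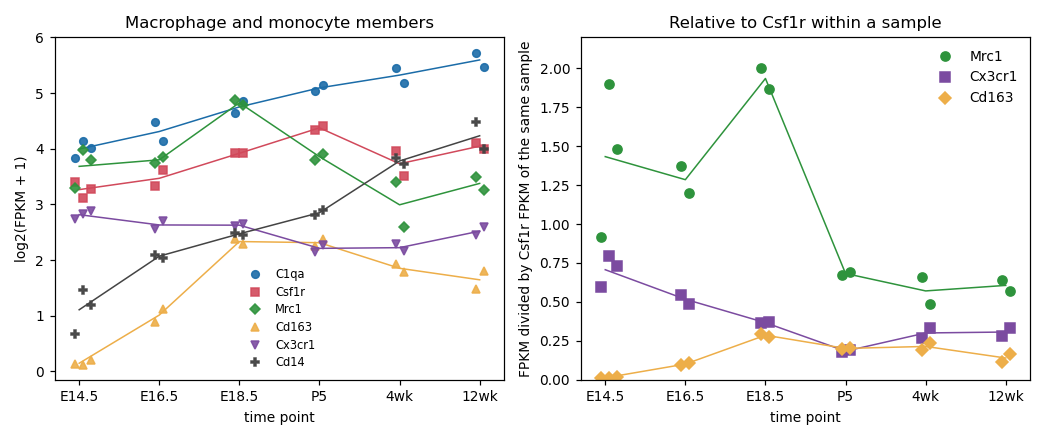
Levels of 6 macrophage and monocyte members as log2(FPKM + 1) (left) and FPKM of Mrc1, Cx3cr1 and Cd163 divided by FPKM of Csf1r in the same sample (right), with a point for each sample and lines through the time point means. The ratio of Cx3cr1 was lower at each time point from E14.5 to P5, and that of Cd163 reached 0.297 and 0.275 on E18.5.

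The mast cell gene Cpa3 was high before birth and low in the adult. Cpa3, a carboxypeptidase of mast cell granules, was at 5.60, 60.8 and 40.6 FPKM at E14.5, 81.1 and 49.2 on E16.5, 101 and 131 on E18.5, 13.1 and 14.8 on P5, 0 and 0.778 at 4wk, with 2.21 and 1.38 at 12wk. All adult samples were below all embryonic ones, and the P5 samples lay between most of them, above E14.5 replicate 1. Cpa3 fell by 4.74 in adult versus embryo (SE 0.63, adjusted p = 1.3e-05), the largest decrease of the 47 members as deposited, and by 2.96 in P5 versus E18.5 (SE 0.78, adjusted p = 0.024) and 3.48 in 4wk versus P5 (adjusted p = 0.0031). Mcpt4, a chymase of connective tissue mast cells, reached its highest values later, with 0, 2.23 and 2.38 FPKM at E14.5, 4.49 and 2.36 on E16.5, 8.97 and 18.4 on E18.5, 11.7 and 13.3 on P5, 1.39 and 1.52 at 4wk, with 2.59 and 1.92 at 12wk. It rose by 1.70 ± 0.51 in E18.5 versus E16.5 (adjusted p = 0.063), a call lost without E16.5 replicate 2 (1.34) or E18.5 replicate 2 (1.22), and fell by 2.46 in 4wk versus P5 (adjusted p = 0.0021). Between E18.5 and P5, Cpa3 was called lower while the change of Mcpt4 was -0.05 ± 0.51. Fcer1a, a chain of the IgE receptor, was at most 0.281 FPKM, at E18.5.

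Of 8 tested further mast cell genes, 5 were called lower and 0 higher in adult versus embryo (3 and 0 with rescaling). Of all genes, 38.0% were called lower and 5.58% higher (14.7% and 13.8% with rescaling). The chymase gene Cma1 fell by 3.98 (SE 0.68, adjusted p = 0.00012) and the histamine-forming enzyme gene Hdc by 3.44 (SE 0.50, adjusted p = 2.5e-05), and Kit, the stem cell factor receptor that epithelial cells of the gland also carry, fell by 1.48 as deposited and by 0.64 with rescaling, where it was not called. Kitl, the ligand of Kit, was at 27.4, 62.9 and 61.1 FPKM at E14.5 and at 6.69 to 10.6 in the adult, and fell by 2.18 (SE 0.21, adjusted p = 6.6e-07). E14.5 replicate 1 was the lowest embryonic sample for Cpa3, Mcpt4, Cma1 and Hdc, the last at 1.99 FPKM against 7.13 to 32.9.

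The neutrophil genes S100a8 and S100a9, whose proteins form calprotectin and whose genes are neighbours on chromosome 3, moved in parallel. S100a8 was at 16.3, 33.5 and 17.5 FPKM at E14.5, 40.2 and 21.9 on E16.5, 14.0 and 21.0 on E18.5, and 12.5 and 7.80 on P5, and had no read in 3 of 4 adult samples and 3 reads (0.269 FPKM) in 12wk replicate 2. S100a9 was between 16.4 and 35.6 FPKM in the embryo, 15.1 and 9.28 on P5, and at 0, 0, 0 and 0.0721 in the adult. In adult versus embryo S100a8 fell by 4.44 (SE 0.26, adjusted p = 7.8e-09) and S100a9 by 4.55 (SE 0.20, adjusted p = 9e-10). With 3 reads per library as the floor at 4wk, P5 was at least 8.88-fold higher for S100a8 and at least 13.3-fold higher for S100a9. Their ratio, S100a9 over S100a8, was between 0.871 and 1.25 in the embryonic and P5 samples. Of 9 tested further monocyte and neutrophil genes, 3 were called lower and 0 higher, beside 38.0% of all genes called lower (3 and 0 of 11 with rescaling, beside 14.7%). Among those lower were the granule genes Camp and Ngp, which fell by 1.97 and 1.83 (adjusted p = 1.2e-06 and 6.4e-05). The list did not fall as a whole: its median was -0.65 beside -0.75 for all genes, and its highest change was 0.18. Summed red blood cell genes were lower in the adult too, with 79.2 to 3373 FPKM in the embryo, 23.9 and 12.6 on P5 and 2.91 to 4.60 in the adult. The embryonic globin Hbb-y gave 2991 FPKM of the sum in E14.5 replicate 1. The globin genes Hba-a1, Hba-a2 and Hbb-b2 were listed at 0 in all samples, and Hbb-b1 was at most 0.441. The sum thus does not measure the amount of blood in the adult, and the part of blood in the S100a8 and S100a9 values was not tested.

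Cxcl13, the chemokine that draws B cells into follicles, had its highest values at E14.5. It was at 38.4, 56.9 and 56.8 FPKM at E14.5, 34.8 and 20.1 on E16.5, 17.7 and 16.9 on E18.5, 6.13 and 5.31 on P5, 0.444 and 0.541 at 4wk, with 0.473 and 0.666 at 12wk. The time points from E14.5 to 4wk did not overlap. Cxcl13 fell by 4.38 in adult versus embryo (SE 0.32, adjusted p = 5.8e-08), by 1.45 in P5 versus E18.5 (SE 0.24, adjusted p = 0.0032) and by 2.17 in 4wk versus P5 (SE 0.24, adjusted p = 4.6e-05). At P5, where Cd79a and Ms4a1 were highest, Cxcl13 was below all embryonic samples.

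Sdc1, the proteoglycan syndecan-1 of plasma cells and epithelium, was lower at each later time point as well, from 105.4, 98.2 and 96.0 FPKM at E14.5 through 70.4 and 75.3 on E16.5, 47.6 and 44.3 on E18.5, and 27.5 and 30.2 on P5, to 7.20 and 7.73 at 4wk and 6.01 and 5.51 at 12wk. It fell by 3.29 in adult versus embryo (SE 0.23, adjusted p = 3.8e-08) and by 1.31 in P5 versus embryo (adjusted p = 0.0072). The plasma cell gene Igj, the joining chain of secreted antibodies, had the opposite course. It was at most 0.247 FPKM up to P5, 4.01 and 2.81 at 4wk, with 64.4 and 73.4 at 12wk, and rose by 4.01 ± 0.69 in adult versus embryo (adjusted p = 0.00012). As deposited it was the only one of 5 tested plasma cell genes called in that comparison, and with rescaling 3 of 5 were called higher. Of all genes, 5.58% were called higher as deposited and 13.8% with rescaling.

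**Figure D5:**
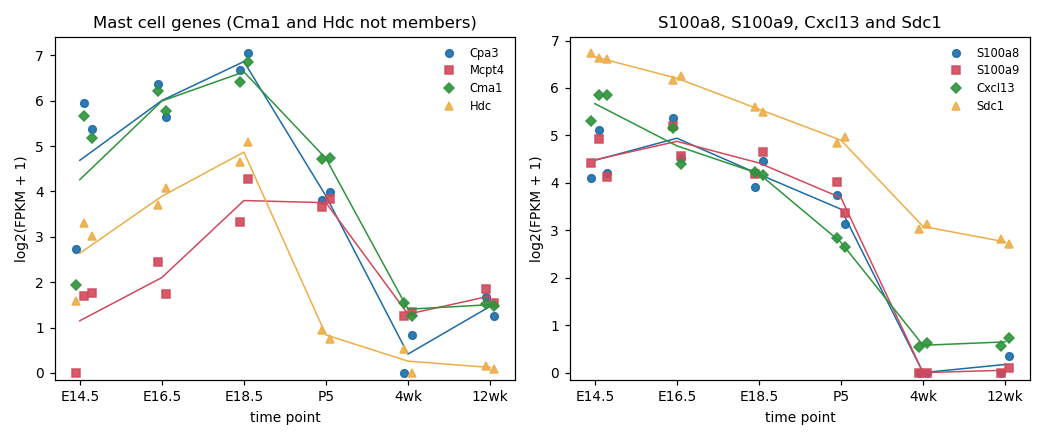
Levels of mast cell genes (left) and of S100a8, S100a9, Cxcl13 and Sdc1 (right) as log2(FPKM + 1), with a point for each sample and lines through the time point means. Cpa3 and the non-members Cma1 and Hdc were highest at E18.5, Mcpt4 stayed high at P5, and S100a8 and S100a9 were at or near 0 in all 4 adult samples.

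Of 17 tested genes for ligands of immune receptors, 3 were called higher and 4 lower in adult versus embryo, and 7 and 3 with rescaling. Beside these and the dendritic cell counts below, 5.58% of all genes were called higher and 38.0% lower (13.8% and 14.7% with rescaling). Ccl8, a chemokine that attracts monocytes, was at most 0.226 FPKM in the embryo, 0.446 and 0.882 on P5, 12.8 and 2.21 at 4wk, with 30.9 and 17.5 at 12wk, and rose by 3.62 ± 0.43 (adjusted p = 4.5e-06). Ccl20, which attracts cells with the receptor Ccr6, fell by 2.32 (SE 0.42, adjusted p = 0.00018) from 1.65 to 12.2 FPKM in the embryo to at most 0.743 in the adult. Of 10 tested dendritic cell genes, 3 were called higher and 2 lower (5 and 2 with rescaling), with Irf8 up by 1.80 ± 0.19 and Batf3 and Zbtb46 both down (each fell by 1.57), while the difference for Flt3 itself was 0.41, with overlapping stages and no call.

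In adult versus P5, 6 of 47 members were called higher and 13 lower as deposited, beside 2.31% and 20.8% of all genes, and 10 each of 48 with rescaling, beside 6.07% and 8.56%. Those higher as deposited were Cd74, H2-Aa, H2-Ab1, H2-D1, B2m and Cd14. Without the 4 libraries that stood apart, the adult group was 4wk alone. H2-D1 (0.66) and B2m (0.75) were then not called, while H2-Eb1 was (2.33, adjusted p = 0.00044). The call of H2-Eb1 follows from leaving out the 12wk libraries, in which it was low. Those lower as deposited were Cd79a, Cd79b, Ms4a1, Cd3d, Cd4, Cd8b1, Ccr7, Cpa3, Mcpt4, S100a8, S100a9, Cxcl13 and Sdc1. With rescaling, only 1 of 10 tested T cell genes was called lower, where 3 of 9 were as deposited. With 1 sample left out, the call of H2-D1 was lost in 9 of 13 such fits, those without either P5 sample among them, that of Cd14 without either P5 sample or 12wk replicate 1, that of Mcpt4 without either P5 sample, that of Cd4 without P5 replicate 1 or 4wk replicate 2, and that of Cd3d without P5 replicate 1. This comparison shares its P5 samples with P5 versus embryo and its adult samples with adult versus embryo.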

How the data were processed

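Total RNA of C57BL/6 submandibular glands was sequenced by the authors as 50 bp single-end reads, mapped to mm9 with TopHat2 2.0.13 and Bowtie2 2.2.6 and counted with featureCounts, without reads that aligned to more than 1 location or gene. The submitters' processing notes also name DESeq2 1.10.1. The authors deposited FPKM per gene for each of the 13 samples; counts are not used here and no count model was fitted. By the median of ratios, the scaling factors were 1.148 to 1.380 in the embryo, 1.031 and 1.089 at P5 and 0.617 to 0.714 in the adult, so that rescaling by them was run as an alternative. Reads were computed from the low FPKM of genes, which step by the value of a single read, and floors of 3 reads cover counting error only.

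Genes that reached 1 FPKM in any sample (14650) were fitted as log2(FPKM + 1) with limma 3.58.1 under R 4.3.3 (mean-variance trend, Benjamini-Hochberg adjustment over all tested genes), with stages as groups in a first fit and time points in a second. Calls required a change of at least 1 and an adjusted p below 0.1. Samples were grouped by the time point in their titles, and p-values measure the spread between these samples or pools. In the fit of stages, this spread also holds differences between the ages within the embryo and within the adult. The fit was tested on simulated data. The members and the lists of further genes were chosen with earlier results of these data known. All 52 members may be named, and of other lists at most 3 genes, those called in adult versus embryo with the largest change among genes whose stages do not overlap, as well as genes of lists for lymph node, blood, gland and muscle that moved with a member. Alternatives were a pseudocount of 0.1, at least 1 FPKM in at least 2 samples, no filter, rescaling, an adjusted p below 0.05, no trend, the replicate number as a block, and each sample left out. Positions are from GENCODE M1 (mm9) and promoters from RefSeq. Python 3.11.15 with pandas 2.3.3 and matplotlib 3.10.9 was used for tables and figures.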

Additional observations from a re-analysis of the deposited data

Results flagged for a closer look

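Among 94 groups of a member and a stage (embryo with 7 samples, adult with 4), 12 had a sample far from the others, judged by its gap to the nearest one as a share of the whole range on the log2 scale. The stages pool time points and the members share libraries, so no rate to be expected by chance is set beside this number.

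In the adult, 4wk replicate 1 was the high sample for 4 members: Ptprc at 6.40 FPKM against 2.82 to 3.23 in the other 3, Cd2 at 3.76 against 0.881 to 0.989, Gzma at 3.72 against 1.24 to 1.43, and Flt3 at 1.93 against 0.172 to 0.250. In the same stage 12wk replicate 2 was high for Cd3d (0.661 against 0.259 to 0.283), S100a8 (0.269 against 0 in the others, from 3 reads) and S100a9 (0.0721 against 0, from 1 read).

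In the embryo, E14.5 replicate 1 was the low sample for Cpa3 (5.60 FPKM against 40.6 to 131), H2-Ab1 (1.09 against 3.31 to 5.74) and H2-D1 (2.81 against 12.9 to 23.2). Without it the fall of Cpa3 in adult versus embryo remained called. E18.5 replicate 2 was high for Ms4a1 (0.0749 against at most 0.0261, from 5 reads) and E18.5 replicate 1 for Klrb1c (0.504 against 0.168 to 0.256).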

How the results depend on the processing

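The 16 members called in adult versus embryo were 26 with a pseudocount of 0.1, 27 with rescaling and 35 with both, an alternative added after seeing the data, and all 16 were among them each time. Of all tested genes, 43.6% were called as deposited and 57.5%, 28.5% and 39.4% under these alternatives. In E16.5 versus E14.5 the 1 call became 3 with a pseudocount of 0.1, 0 with rescaling, 3 with both and 6 without the 4 libraries that stood apart (also added), beside 5.15%, 8.08%, 4.40%, 7.44% and 8.10% of all genes. The 6 rest on E14.5 replicate 1 alone, itself low for several MHC genes and assumed to vary like the other groups, so that nothing is read from them. In 12wk versus 4wk the 2 calls became 5 with a pseudocount of 0.1 and 5 with both, beside 5.15%, 11.3% and 12.8% of all genes. With one sample left out, the counts were 14 to 18 in adult versus embryo, 12 to 21 in P5 versus embryo, 14 to 20 in adult versus P5, 1 to 3 in E16.5 versus E14.5, 1 to 4 in E18.5 versus E16.5, 9 to 17 in P5 versus E18.5, 18 to 23 in 4wk versus P5 and 1 to 5 in 12wk versus 4wk. The 5 in the last, all lower, were reached without 4wk replicate 2 and the 1 without 12wk replicate 1, and the 3 in E16.5 versus E14.5 without E14.5 replicate 1. A change in 12wk versus 4wk without the 4 libraries was not run, since both 12wk samples are among them. Shares of all genes called are not given for the fits with one sample left out. Those counts therefore do not show whether the members moved apart from other genes.

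Same-numbered samples of different time points did not deviate together on average (mean r of -0.016 over 30 pairs, from -0.35 to 0.27). The mean r was 0.012 over 40 pairs of different numbers. That mean is no independent figure, since 2 samples of a time point deviate from their mean in opposite directions. The replicate number was not treated as a pairing, but these means cannot exclude one between some time points. With the replicate number as a block, 16 members were called in adult versus embryo, 18 in P5 versus embryo, 18 in adult versus P5, 1 in E16.5 versus E14.5, 3 in E18.5 versus E16.5, 17 in P5 versus E18.5, 21 in 4wk versus P5 and 2 in 12wk versus 4wk, and Gzma (0.95) lost and Cd3g (1.03) gained a call. Shares of all genes called with this block are not given, so the counts say nothing particular to the members.

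Members that changed sign in adult versus embryo were not called on either side. With rescaling they were Cd4 (0.10), Cd8a (0.06), Cd79b (0.37), Mrc1 (0.01), Aif1 (0.78), Cx3cr1 (0.45) and Fcer1g (0.43). Cd79b was at 0.09 without the 4 libraries and, with one sample left out, between -0.57 (without 4wk replicate 1) and 0.29 (without 4wk replicate 2). With one sample left out Cd8a lay between -0.06 and 0.02, and it was 0.00 to 0.02 without E14.5 replicate 1, 4wk replicate 1 or 4wk replicate 2, and Aif1 lay between -0.13 and 0.05, with 0.02, 0.03, 0.01 and 0.05 without E16.5 replicate 1, E18.5 replicate 1, E18.5 replicate 2 or 4wk replicate 1. The cause was not tested. Depth limits the lymphocyte genes at 4wk most, where 3 reads on Cd79a were worth 0.389 and 0.284 FPKM.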
